A study of Homo sapiens with 27 samples.

Results

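RNA levels of 38 genes of the mitotic spindle, the kinetochore and mitotic exit were examined in 3 human colorectal cancer (CRC) cell lines before and after resistance to 5-fluorouracil (5-FU) or oxaliplatin (OX). They were taken by symbol from a list of mitotic regulators. All 38 were found among the 26255 gene symbols of the tables, and all 38 were expressed well enough to be tested in each line. In OX-resistant HCT116 cells each of the 38 transcripts was lower than in WT cells, by 5.10-fold at the median, whereas in OX-resistant DLD-1 cells 35 of the same 38 were higher, by 1.25-fold at the median. The 5-FU-resistant cells showed a smaller fall in HCT116 and DLD-1, and in SW480 the 38 genes split in both directions, with the balance turning on how the libraries were scaled.

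The libraries came from HCT116, SW480 and DLD-1, established lines grown from human CRC, all kept in low-glucose DMEM with serum and without an engineered allele. Each line was sequenced as WT cells (a negative control with no drug), as 5-FU res cells and as OX res cells, with 3 libraries a group and 27 in all. The resistant cells were grown for about 6 months in rising, non-lethal doses, from 5 to 70 µM for 5-FU and from 5 to 35 µM for OX, and each resistant group is the surviving culture of that line rather than a set of separately derived clones, as far as the sources say. Viable, subconfluent cells were harvested from 6-well plates. No source states whether drug was present at harvest, or whether a group's libraries stem from separate cultures. A p-value here therefore covers the spread among libraries alone, and that spread may be technical. The library names of DLD-1 run in another series than those of HCT116 and SW480, and for DLD-1 the line and the library series cannot be told apart.

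Cells enter mitosis through the kinase CDK1 bound to cyclin B. Before that, a transcription programme led by FOXM1 and MYBL2 has raised the transcripts of mitotic genes late in the cell cycle. Microtubules of the spindle then attach to the kinetochore, a protein assembly on the centromere whose outer plate is formed by the NDC80 complex. Unattached kinetochores keep the spindle checkpoint active, which holds back CDC20, the activator of the anaphase-promoting complex (APC/C). Once all chromosomes are attached, APC/C with CDC20 marks securin (PTTG1) and cyclin B for destruction, separase (ESPL1) cuts cohesin, and the cell exits mitosis. These transcripts peak in G2 and mitosis, so in bulk RNA a smaller share of cycling cells and less of each transcript per cycling cell cannot be told apart.

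Levels are given as scaled TPM, which is the FPKM of the tables rescaled to TPM, whose sum is the same in every library, and then divided by a factor of the library that sets its median gene equal to that of the others. A fold change is therefore relative to the median gene. It was tested with limma on log2(scaled TPM + 1), which understates the change of low genes, and a gene was called at a Benjamini-Hochberg adjusted p under 0.05 over all genes tested. Libraries of a group correlated at 0.9908 or more, no library was identical to another, and read depth is unknown because the tables hold only FPKM. The share of TPM in ribosomal protein genes ran from 12.1 to 26.1% and was lowest in the OX res libraries of HCT116. TPM with no further scaling would shift all log2 fold changes against WT by 0.16 and 0.49 in 5-FU- and OX-resistant HCT116, 0.39 and 0.37 in SW480 and -0.03 and 0.15 in DLD-1. Splits of the 38 genes on that scale are given beside the scaled ones where they differ. Shares of all genes were counted on the scaled values alone, so the unscaled splits have no background.

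In WT cells the 38 transcripts were among the more abundant of each line. Ranked among the genes that reached a TPM of 1 throughout the group, the median of the 38 stood at percentile 78.9 in HCT116, 82.4 in SW480 and 79.3 in DLD-1. Their summed level was 4520 ± 37.9 (SD, n = 3) scaled TPM in HCT116, 5160 ± 72.1 in SW480 and 3080 ± 17.3 in DLD-1. CDC20 led in HCT116 with 540 ± 19.8 scaled TPM, followed by PTTG1 with 442 ± 30.7 and UBE2C, the ubiquitin-conjugating enzyme of APC/C, with 422 ± 15.9. PTTG1 led in SW480 with 662 ± 60.8, and TOP2A, the topoisomerase that disentangles sister chromatids, led in DLD-1 with 223 ± 5.62. In all 3 lines the lowest was CENPE, a kinetochore motor, with 6.59 ± 0.514, 8.47 ± 1.31 and 10.1 ± 0.5 scaled TPM. The leading order was close in places, since the libraries of PTTG1 (441, 474 and 413) and UBE2C (433, 429 and 404) in HCT116 overlapped.

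The WT lines differed in level, most of all in TOP2A and AURKB. HCT116 WT was higher than SW480 WT in 11 members and lower in 23 (21 on unscaled TPM), where 38.4% of all genes tested were higher and 39.2% lower. Against DLD-1 WT, HCT116 WT was higher in 21 and lower in 8 (39.8% and 39.5% of all genes), and SW480 WT was higher in 26 and lower in 6 (40.5% and 39.8%). With unscaled TPM the last 2 comparisons came to 12 higher and 18 lower, and 14 higher and 13 lower, since that scale shifts log2 fold changes against DLD-1 by -0.44 and -0.46. TOP2A libraries read 54.4, 58.7 and 61.1 scaled TPM in HCT116, 246, 175 and 220 in SW480 and 228, 217 and 225 in DLD-1, and those of HCT116 lay below all others (against SW480, log2 fold change -1.85, SE 0.081, adjusted p = 1.7e-15). AURKB had another order of lines, with 234, 294 and 259 in SW480, 154, 158 and 147 in HCT116 and 62.5, 65.6 and 62.8 in DLD-1. The 3 lines did not overlap in it (SW480 against DLD-1, log2 fold change 2.02, SE 0.083, adjusted p = 3.8e-16). HCT116 WT stood above both other lines in CDC20 and PLK1 (CDC20 against DLD-1, log2 fold change 1.48, SE 0.064, adjusted p = 1.3e-15; PLK1 against SW480, log2 fold change 0.77, SE 0.054, adjusted p = 7.7e-12).

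**Figure D1:**
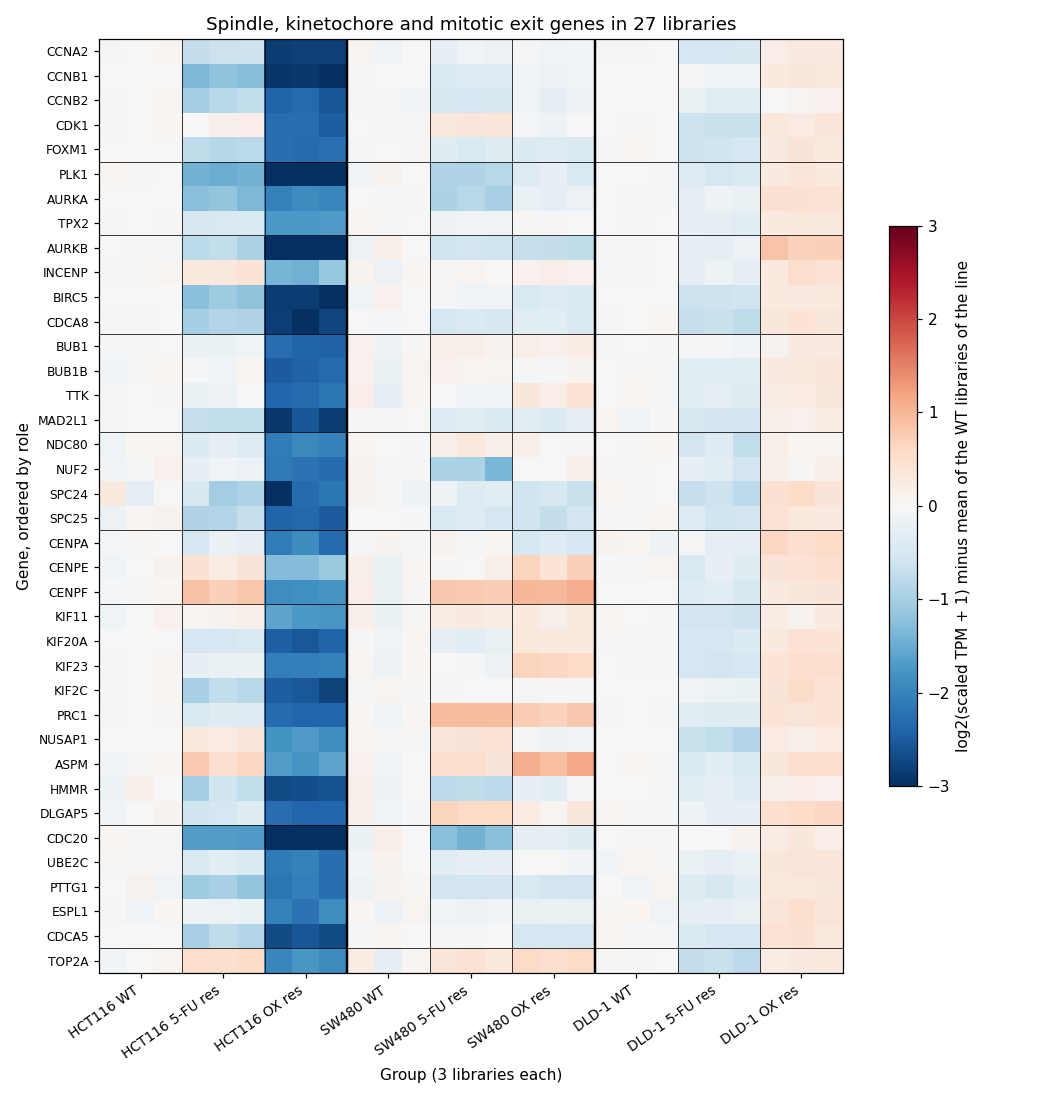
Heat map of log2(scaled TPM + 1) for the 38 genes (rows, ordered by role) in the 27 libraries (columns, 3 a group), as the difference from the mean of the line's WT libraries (blue lower, red higher, colours end at 3 either way). The 3 OX res libraries of HCT116 form a block of blue across all rows, while the OX res libraries of DLD-1 lie above their WT libraries in most rows.

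OX-resistant HCT116 cells had less of all 38 transcripts. The summed level fell from 4520 ± 37.9 in WT to 790 ± 25.5 scaled TPM, and the share of TPM in these genes from 0.364% to 0.0893%. All 38 were called lower and 0 higher by limma, also at an unadjusted p under 0.05, where 32.8% of all 14010 genes tested were lower and 47.6% higher. The median log2 fold change was -2.35 over the members and 0.17 over all genes, and the members' quartiles were -2.63 and -2.03. For all 38 the highest OX res library lay below the lowest WT library, and the largest adjusted p was 1.3e-06. The share of all genes without overlap was not counted. The members' median place among expressed genes dropped from percentile 78.9 to 38.9. With unscaled TPM the median was -1.87, and all 38 remained lower.

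The deepest falls were those of CDC20, AURKB (the kinase of the chromosomal passenger complex) and PLK1 (polo-like kinase of mitotic entry). CDC20 read 563, 529 and 528 scaled TPM in the WT and 49.8, 45.6 and 47.1 in the OX res libraries, an 11.4-fold difference (log2 fold change -3.48, SE 0.046, adjusted p = 1.5e-12). AURKB read 154, 158 and 147 against 13.6, 13.5 and 18 (log2 fold change -3.27, SE 0.098, adjusted p = 2.4e-10). PLK1 read 211, 190 and 198 against 21.4, 20.8 and 20.5 (log2 fold change -3.19, SE 0.05, adjusted p = 3.9e-12). The OX res libraries of these genes were close to each other and far from any WT library. At the other end were CENPE, INCENP (the scaffold of the chromosomal passenger complex) and ASPM (a spindle pole protein). CENPE read 6.13, 6.5 and 7.15 against 2.08, 2.06 and 2.52. INCENP read 23.9, 24.2 and 26 against 8.79, 8.47 and 10.7. ASPM read 9.25, 10.1 and 10.4 against 2.44, 2.18 and 2.63. Even these 3 did not overlap and were 2.97-, 2.65- and 4.1-fold lower (log2 fold changes -1.24, -1.32 and -1.68, with adjusted p of 3.9e-07, 5.3e-08 and 2.2e-08).

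Because the members moved together here, the 250 bases before the gene start are shown for the 3 deepest falls (CDC20, AURKB and PLK1), for the cyclin CCNB1, and for the 2 smallest falls (CENPE and INCENP). Promoters of late cell cycle genes are known for the cell cycle genes homology region (CHR), most often TTTGAA, and for CCAAT boxes bound by NF-Y. Capitals mark 3 hexamers of this kind and the CCAAT box on either strand. The hexamers are TTTGAA (the reverse strand reads TTCAAA), the variant TTCGAA and the variant TTTAAA. On the reverse strand the CCAAT box reads ATTGG.
CDC20, chr1:43358731-43358980, plus strand: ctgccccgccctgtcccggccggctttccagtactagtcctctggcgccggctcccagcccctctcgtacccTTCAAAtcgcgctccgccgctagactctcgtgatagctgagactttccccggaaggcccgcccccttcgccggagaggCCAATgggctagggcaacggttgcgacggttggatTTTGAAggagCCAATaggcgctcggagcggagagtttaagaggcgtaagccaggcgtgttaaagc
AURKB, chr17:8210226-8210475, minus strand: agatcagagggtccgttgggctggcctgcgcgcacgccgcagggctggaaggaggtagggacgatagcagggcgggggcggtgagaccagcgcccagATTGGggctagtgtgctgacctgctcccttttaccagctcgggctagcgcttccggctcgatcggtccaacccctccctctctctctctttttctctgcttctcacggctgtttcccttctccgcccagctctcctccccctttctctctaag
PLK1, chr16:23678639-23678888, plus strand: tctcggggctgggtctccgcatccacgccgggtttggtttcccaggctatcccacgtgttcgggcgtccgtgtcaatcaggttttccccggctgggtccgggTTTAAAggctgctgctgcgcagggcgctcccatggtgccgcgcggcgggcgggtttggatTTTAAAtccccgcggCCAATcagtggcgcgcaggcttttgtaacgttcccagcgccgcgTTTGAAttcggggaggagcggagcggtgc
CCNB1, chr5:69166900-69167149, plus strand: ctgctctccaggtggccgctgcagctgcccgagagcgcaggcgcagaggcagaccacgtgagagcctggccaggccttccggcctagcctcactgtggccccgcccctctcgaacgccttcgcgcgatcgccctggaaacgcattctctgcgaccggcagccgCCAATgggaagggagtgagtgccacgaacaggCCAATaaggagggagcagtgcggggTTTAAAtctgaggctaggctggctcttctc
CENPE, chr4:103198344-103198593, minus strand: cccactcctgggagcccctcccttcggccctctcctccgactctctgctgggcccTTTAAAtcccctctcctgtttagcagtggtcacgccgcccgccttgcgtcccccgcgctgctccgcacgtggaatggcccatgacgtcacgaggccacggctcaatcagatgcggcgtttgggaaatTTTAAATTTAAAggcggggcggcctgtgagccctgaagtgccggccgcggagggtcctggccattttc
INCENP, chr11:62123761-62124010, plus strand: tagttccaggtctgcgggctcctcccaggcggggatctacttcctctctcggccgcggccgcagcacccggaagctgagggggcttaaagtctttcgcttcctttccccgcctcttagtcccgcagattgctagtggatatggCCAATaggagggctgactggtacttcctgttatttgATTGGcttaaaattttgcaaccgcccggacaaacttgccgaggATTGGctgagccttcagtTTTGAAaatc
Sequences and starts are those of RefSeq on GRCh38.p14, while the tables were made on hg19 and give no positions.

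Of the 38 genes, 32 had a RefSeq promoter in the table used. FOXM1, AURKA, TPX2, BIRC5, TTK and UBE2C had none. The count was made over the 300 bases from 250 before to 50 after each start. TTTGAA on either strand stood in 22 of the 32 (68.8%) and in 15.43% of all 27305 promoters. CCAAT stood in 26 (81.2%) and in 35.7% of all, TTCGAA in 3 (9.4%) and in 1.45% of all. TTTAAA was added after the promoters had been viewed, and stood in 13 (40.6%) and in 12.35% of all. At least 1 of the 3 hexamers and a CCAAT were found together in 23 of the 32 (71.9%) and in 9.95% of all promoters. Among the printed windows, CENPE held TTTAAA but no CCAAT. AURKB held CCAAT but none of the 3 hexamers. In OX-resistant HCT116 the median log2 fold change was -2.28 with TTTGAA (n = 22) and -2.55 without (n = 10), and -2.36 with CCAAT (n = 26) and -2.32 without (n = 6). It was -2.16 with TTTAAA (n = 13) and -2.41 without (n = 19), and -2.35 with any of the 3 hexamers (n = 29) and -2.82 with none (n = 3). None of these differences was tested. A match is a description of the sequence, and no factor's binding was measured.

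HCT116 cells resistant to 5-FU had a smaller and uneven fall. Of the 38 genes, 27 were lower, 6 higher and 5 did not pass the test, where 35.2% of all genes tested were lower and 40.7% higher. The members' median log2 fold change was -0.48, against 0.05 over all genes, and the summed level was 2810 ± 62.4 scaled TPM. The 3 deepest falls were those of CDC20, PLK1 and CCNB1 (cyclin B1). CDC20 read 169, 169 and 166 scaled TPM in the 5-FU res libraries (log2 fold change -1.68, SE 0.046, adjusted p = 5.6e-10). PLK1 read 74.3, 70.6 and 74.6 (log2 fold change -1.44, SE 0.05, adjusted p = 2.4e-09). CCNB1 read 122, 133 and 127, against 308, 315 and 307 in WT (log2 fold change -1.28, SE 0.064, adjusted p = 2.8e-08). All 3 lay far below their WT libraries. The 6 that were higher were CENPF (a kinetochore protein), ASPM, TOP2A, INCENP, CENPE and NUSAP1 (a microtubule binder), with log2 fold changes of 0.81, 0.65, 0.51, 0.35, 0.35 and 0.30. Once a trend of all genes on transcript length was removed, ASPM (-0.0265) and TOP2A (0.16) were no longer called. CDK1 (0.12), BUB1B (-0.033), TTK (-0.12), KIF11 (0.11) and ESPL1 (-0.18) did not pass. With unscaled TPM, 8 were higher and 23 lower, and CDK1 was among those called higher (0.27), as it was without 5-FU res replicate 1 (0.17). CDK1 was also called higher with the length trend removed (0.33).

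All 38 were higher in the 5-FU res than in the OX res libraries of HCT116, and their libraries did not overlap (not counted over all genes). The median log2 difference was 1.82, a 3.54-fold difference, where 35.3% of all genes were higher and 39.5% lower. It ran from 0.69 for AURKA to 2.63 for CENPF. Both resistant groups are compared with the same 3 WT libraries, and 27 of the 38 genes were lower in both. The share of all genes lower in both was not counted.

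In SW480 cells neither resistant group moved the whole set one way. The summed level was 5160 ± 72.1 scaled TPM in WT, 4330 ± 23.1 with 5-FU and 4710 ± 86.2 with OX. In 5-FU res cells 9 members were higher and 18 lower (23.7% and 47.4% of the members), where 40.7% of all genes were higher and 30.6% lower, and in TPM with no further scaling the split turned to 21 higher and 7 lower. The same comparison had a median log2 fold change of -0.11 scaled and 0.28 unscaled. In OX res cells 11 were higher and 16 lower (28.9% and 42.1% of the members, against 36.7% and 31.7% of all genes), which became 23 higher and 4 lower without scaling, with medians of -0.08 and 0.29. The 11 fell to 7 without OX res replicate 1 and likewise without OX res replicate 3. The direction of the set in SW480 thus depended on the scale. Unscaled TPM shifts all genes there by 0.39 and 0.37. The shares of all genes on that scale were not counted, so the unscaled splits show no rise particular to the set.

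The genes that were lower in SW480 5-FU res on both scales were AURKA, AURKB, CDC20, HMMR, NUF2, PLK1 and PTTG1. CDC20 had the deepest fall and read 332, 426 and 383 in WT against 157, 142 and 158 in 5-FU res (log2 fold change -1.31, SE 0.084, adjusted p = 2.8e-07, and -0.92 unscaled). NUF2, a subunit of the NDC80 complex, read 34.4, 30.5 and 30.3 against 15.9, 16 and 11.6 (log2 fold change -1.09, SE 0.11, adjusted p = 9.7e-06, and -0.71 unscaled). AURKA, the kinase of spindle poles, read 209, 199 and 212 against 107, 115 and 105 (log2 fold change -0.92, SE 0.052, adjusted p = 1.1e-07, and -0.53 unscaled). None of these 3 overlapped between WT and 5-FU res. At the top were PRC1, which bundles midzone microtubules, CENPF and DLGAP5, a spindle assembly factor. PRC1 read 90.5, 79.2 and 89.8 in WT and 164, 169 and 164 in 5-FU res. CENPF read 38.8, 28.4 and 34.1 and 59.1, 58.1 and 56.2. DLGAP5 read 52.6, 44.2 and 46.1 and 76.6, 72.5 and 71.9. All 3 were higher without overlap (log2 fold changes 0.93, 0.77 and 0.62, adjusted p of 2.6e-07, 3.2e-05 and 5.5e-05).

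In SW480 OX res the genes that were lower on both scales were AURKB, CDCA5 (sororin, which protects cohesin), PTTG1 and SPC25. AURKB read 234, 294 and 259 in WT and 161, 159 and 153 in OX res (log2 fold change -0.72, SE 0.071, adjusted p = 1e-05, and -0.35 unscaled). SPC25 read 88.2, 89.4 and 86.3 and 57.6, 53.3 and 60 (log2 fold change -0.62, SE 0.055, adjusted p = 5.2e-06, and -0.25 unscaled). SPC24 read 24.8, 23.7 and 20.5 and 14.9, 16.1 and 14 (log2 fold change -0.58, SE 0.093, adjusted p = 0.00028), with -0.23 and no call unscaled. The OX res libraries of all 3 lay below every WT library. ASPM rose the most, with 16.5, 13.9 and 15.1 in WT and 33.1, 29.3 and 35.2 in OX res (log2 fold change 1.05, SE 0.085, adjusted p = 2.9e-06). CENPF followed with 67.8, 67.1 and 71.9 in OX res (log2 fold change 1.02, SE 0.093, adjusted p = 6.6e-06), and PRC1 with 148, 139 and 151 (log2 fold change 0.75, SE 0.059, adjusted p = 2.5e-06). None of these 3 overlapped with WT. Both drugs shared 6 genes that were higher (CENPF, KIF11, PRC1, ASPM, DLGAP5 and TOP2A), and they share the WT libraries. The share of all genes higher in both was not counted. Set against OX res, the 5-FU res libraries of SW480 had 10 members higher and 15 lower (33.9% and 30.1% of all genes, and 9 and 13 members on unscaled TPM), with NUF2 (-1.14) and CDC20 (-1.01) lowest and CENPA (0.51) highest.

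DLD-1 cells showed small shifts of nearly the whole set, in opposite directions for the 2 drugs. The summed level was 3080 ± 17.3 scaled TPM in WT, 2360 ± 23.1 with 5-FU and 3830 ± 43.6 with OX. In 5-FU res cells 35 were lower and 0 higher, where 25.2% of all genes were lower and 25.4% higher, and the median log2 fold change was -0.38. In OX res cells 35 were higher and 0 lower, where 23.3% of all genes were higher and 22.8% lower, and the median was 0.32, with 38 higher on unscaled TPM. Neither count of 0 changed at an unadjusted p under 0.05. Between the resistant groups all 38 were lower in 5-FU res (median -0.75, with 30.9% of all genes lower and 31.9% higher), from SPC24 (-1.17) to CDC20 (-0.20). No member changed by more than 2-fold against WT in either drug. The libraries of 36 of 38 in 5-FU res and 37 of 38 in OX res did not overlap with WT. The share of all genes without overlap was not counted, so these 2 counts have no background.

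The deepest falls in DLD-1 5-FU res were those of NUSAP1, TOP2A and CDCA8 (borealin), closely followed by SPC24. NUSAP1 read 113, 113 and 112 scaled TPM in WT and 70.1, 66.6 and 61.3 in 5-FU res (log2 fold change -0.76, SE 0.047, adjusted p = 3.8e-07). TOP2A read 228, 217 and 225 and 135, 141 and 129 (log2 fold change -0.72, SE 0.04, adjusted p = 1.6e-07). CDCA8 read 48.6, 49.7 and 52.5 and 30.8, 31.1 and 29.4 (log2 fold change -0.70, SE 0.042, adjusted p = 3.1e-07). All 3 were lower without overlap. At the other end CDC20 read 195, 199 and 186 and 195, 196 and 209, which overlapped (log2 fold change 0.048, SE 0.043, adjusted p = 0.39). BUB1 read 64.6, 63 and 61.5 and 60, 61.3 and 58.5 (log2 fold change -0.071, SE 0.047, adjusted p = 0.23). Neither passed, nor did CENPA (-0.20). CCNB1 read 159, 155 and 156 and 153, 144 and 145, and its -0.09 (adjusted p = 0.038) rested on the setting. It was -0.12 unscaled and -0.086 with the length trend removed (adjusted p = 0.052 and 0.058), and -0.098 to -0.075 without any 1 of the WT replicates or of the 5-FU res replicates 2 and 3, with no call in these.

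In OX-resistant DLD-1 cells AURKB, CENPA (the centromeric histone H3) and DLGAP5 rose the most. AURKB read 115, 104 and 105 in OX res against 62.5, 65.6 and 62.8 in WT (log2 fold change 0.75, SE 0.048, adjusted p = 5.6e-07). CENPA read 45.3, 40.7 and 43.6 against 31.1, 30.4 and 25.9 (log2 fold change 0.56, SE 0.081, adjusted p = 0.00025). DLGAP5 read 54.6, 57.3 and 60.5 against 41.7, 37.4 and 38.1 (log2 fold change 0.55, SE 0.056, adjusted p = 2e-05). None of these overlapped. CCNB2 (128, 135 and 138 against 126, 128 and 127, log2 fold change 0.072), NDC80 (0.10) and NUF2 (0.12) did not pass.

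**Figure D2:**
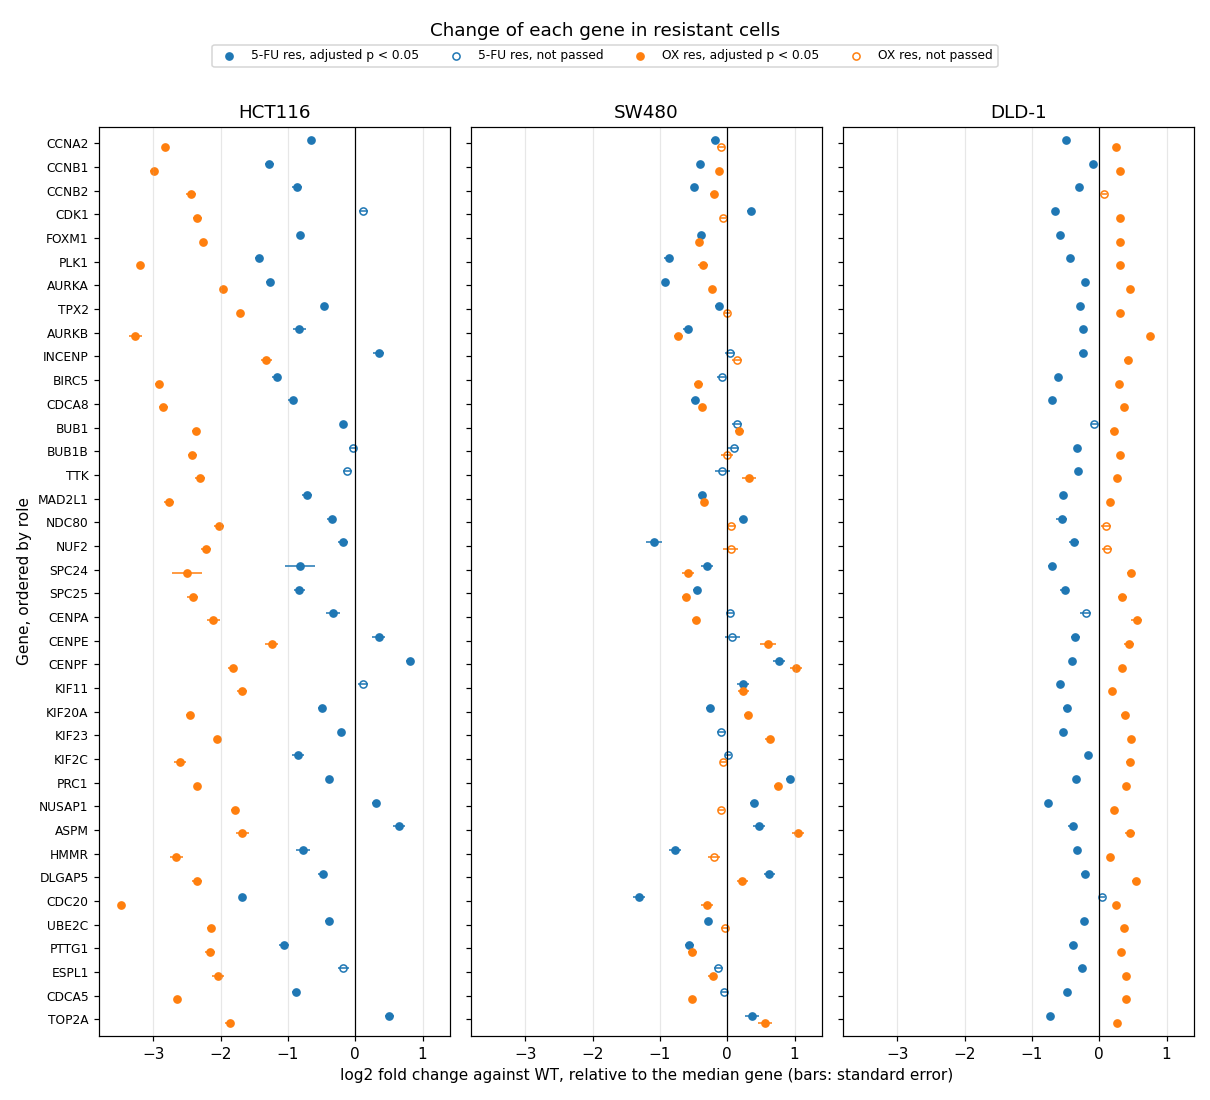
Log2 fold change against WT, relative to the median gene, of each of the 38 genes (rows, ordered by role) in HCT116, SW480 and DLD-1 (panels), for 5-FU res (blue) and OX res (orange). Bars are standard errors, filled points passed the test and open points did not. The OX res points of HCT116 lie between -3.48 and -1.24, while those of DLD-1 lie between 0.07 and 0.75.

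The difference between lines was tested as an interaction over all 27 libraries. The effect of OX resistance was lower in HCT116 than in SW480 for all 38 members and higher for 0, where 29.9% of all genes were lower and 33.5% higher, with a median difference of -2.42 from -3.18 (CDC20) to -1.47 (INCENP). It was likewise lower in HCT116 than in DLD-1 for all 38 and higher for 0 (29.0% and 39.9% of all genes), with a median of -2.62 from -4.02 (AURKB) to -1.68 (CENPE). Both counts of 0 were the same at an unadjusted p under 0.05. SW480 against DLD-1 gave 26 lower and 4 higher (28.2% and 33.3%, and 17 lower and 5 higher on unscaled TPM), from -1.48 (AURKB) to 0.68 (CENPF). For 5-FU resistance, HCT116 was lower than SW480 in 22 and higher in 2 (33.4% and 31.1%, and 29 lower and 1 higher on unscaled TPM), from PRC1 (-1.33) to NUF2 (0.90). HCT116 was lower than DLD-1 in 17 and higher in 10 (30.5% and 34.7%, and 10 lower and 13 higher on unscaled TPM), from CDC20 (-1.72) to TOP2A (1.23). SW480 was lower than DLD-1 in 7 and higher in 21 (27.5% and 36.6%, and 2 lower and 31 higher on unscaled TPM), from CDC20 (-1.36) to PRC1 (1.28).

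Of the cyclins, CDK1 and FOXM1, all 5 fell in OX-resistant HCT116, whereas CDK1 parted from its cyclin in 5-FU-resistant HCT116 and SW480. CCNB1, which reached 40.1, 40.5 and 34.1 in OX-resistant HCT116 (log2 fold change -2.99, SE 0.064, adjusted p = 2.9e-11), read 229, 223 and 223 in the WT, 164, 172 and 172 in the 5-FU res and 208, 199 and 212 in the OX res libraries of SW480. It was lower there with 5-FU (-0.41, and -0.018 with no call unscaled), and in SW480 OX res its -0.13 turned to 0.24 without scaling. That value also lost its call without WT replicate 3 (-0.13) or OX res replicate 2 (-0.10). CDK1, the catalytic partner of cyclin B, read 150, 158 and 162 in the WT, 157, 174 and 179 in the 5-FU res and 31.4, 31.1 and 27.2 in the OX res libraries of HCT116. Only the OX res libraries stood apart there (log2 fold change -2.35, SE 0.067, adjusted p = 1.8e-10). In SW480 CDK1 read 130, 128 and 135 in the WT, 164, 168 and 169 in the 5-FU res and 128, 118 and 130 in the OX res libraries, and it was higher in 5-FU res alone (log2 fold change 0.35, SE 0.049, adjusted p = 8.8e-05). In OX res its -0.062 did not pass, and it was 0.31 unscaled. In DLD-1 CDK1 read 119, 122 and 118 in the WT, 75.9, 75.2 and 75 in the 5-FU res and 149, 143 and 154 in the OX res libraries, lower with 5-FU (-0.66) and higher with OX (0.31), without overlap.

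FOXM1, the transcription factor of G2 and M genes, read 107, 107 and 105 in the WT, 62.1, 57.9 and 59.9 in the 5-FU res and 21.4, 20.7 and 21.7 in the OX res libraries of HCT116, a fall in both resistant groups (log2 fold change -0.81, SE 0.044, adjusted p = 5.2e-08 with 5-FU and log2 fold change -2.27, SE 0.044, adjusted p = 1.5e-11 with OX). FOXM1 read 193, 199 and 201 in the WT, 153, 144 and 154 in the 5-FU res and 148, 151 and 145 in the OX res libraries of SW480, where the scaled -0.40 and -0.42 became -0.0061 and -0.049 without scaling and no longer passed. FOXM1 in DLD-1 read 118, 129 and 124 in the WT, 78.6, 81.3 and 85.6 in the 5-FU res and 149, 161 and 151 in the OX res libraries (log2 fold changes -0.59 and 0.31). On the scaled values no resistant group of any line overlapped with its WT libraries, and only DLD-1 OX res lay above them. CCNA2 (cyclin A2) and CCNB2 fell by 2.82 and 2.44 on the log2 scale in OX-resistant HCT116, and with OX in DLD-1 CCNA2 rose (0.25) while CCNB2 did not pass.

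Of AURKA, PLK1 and TPX2, PLK1 fell furthest in OX-resistant HCT116, and AURKA differed least of the 38 between 5-FU and OX res in that line. AURKA read 100, 102 and 99.2 in the WT, 41.4, 43.4 and 38.6 in the 5-FU res and 23.9, 26.2 and 25.3 in the OX res libraries of HCT116 (log2 fold change -1.27, SE 0.054, adjusted p = 9.8e-09 with 5-FU and log2 fold change -1.96, SE 0.054, adjusted p = 1.5e-10 with OX), and its 5-FU res libraries were closer to OX res than to WT. In SW480 OX res it read 179, 170 and 182, and its scaled -0.22 turned to 0.15 without scaling. In DLD-1 it read 69.2, 70.8 and 67.6 in the WT, 57.7, 62.3 and 59 in the 5-FU res and 95.3, 95.6 and 93.8 in the OX res libraries (-0.21 and 0.45). PLK1 read 108, 125 and 117 in the WT, 61.8, 62 and 65.5 in the 5-FU res and 88.3, 98.4 and 84.4 in the OX res libraries of SW480, lower with 5-FU on both scales (-0.87, unscaled -0.48), whereas the scaled -0.36 with OX was 0.0064 unscaled. In DLD-1 PLK1 read 79.1, 80.2 and 77.5 in the WT, 59.7, 55.8 and 58.3 in the 5-FU res and 95.9, 102 and 96.9 in the OX res libraries (-0.44 and 0.31), with no overlap between groups. TPX2, which targets AURKA to the spindle, fell by 1.71 on the log2 scale in OX-resistant HCT116.

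**Figure D3:**
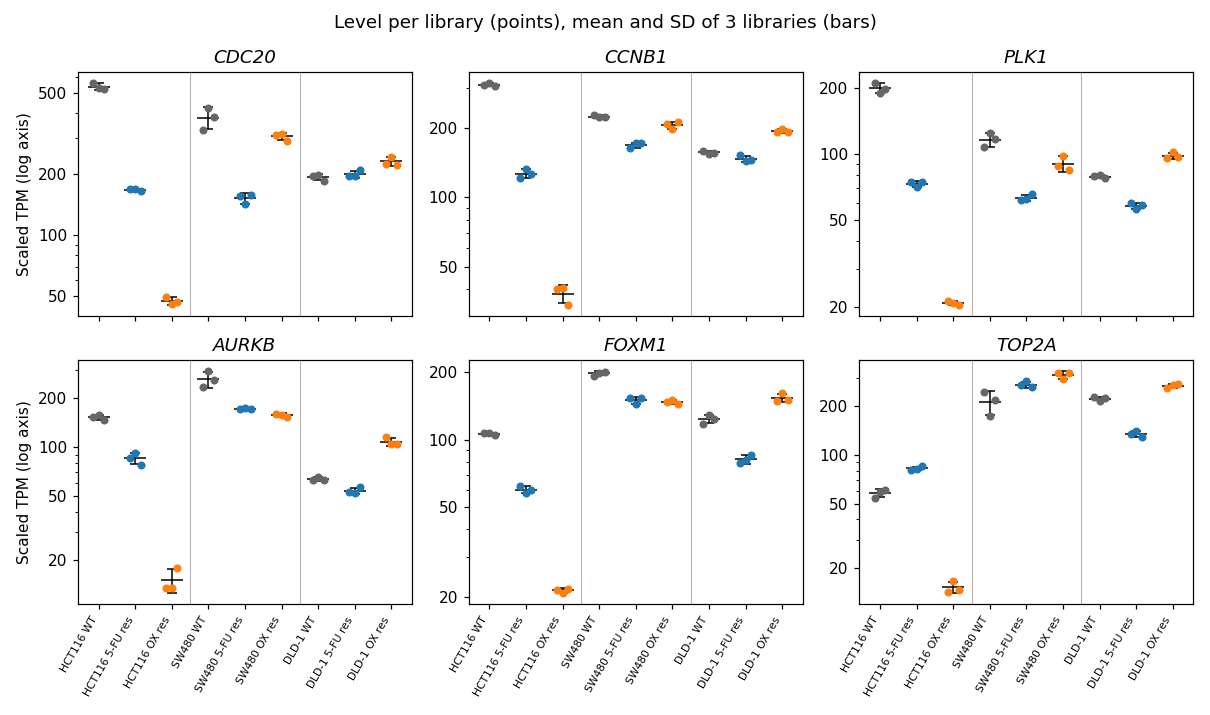
Scaled TPM per library (points, log axis) with mean and SD (bars, n = 3) of CDC20, CCNB1, PLK1, AURKB, FOXM1 and TOP2A in the 9 groups. In HCT116 the OX res libraries (orange) lie lowest in all 6 panels, the 5-FU res libraries (blue) lie between WT and OX res except for TOP2A, and in DLD-1 the OX res libraries lie highest.

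The chromosomal passenger complex joins the kinase AURKB to INCENP, survivin (BIRC5) and borealin (CDCA8) and corrects faulty attachments. Its 4 transcripts did not move as a unit in HCT116 5-FU res, where INCENP rose and the other 3 fell. INCENP read 30.9, 31.1 and 33 scaled TPM there against 23.9, 24.2 and 26 in WT (log2 fold change 0.35, SE 0.081, adjusted p = 0.0024). AURKB read 86.2, 91.8 and 78.1 (log2 fold change -0.83, SE 0.098, adjusted p = 1.5e-05). BIRC5 read 87.5, 100 and 91 against 213, 209 and 208 in WT (log2 fold change -1.17, SE 0.064, adjusted p = 5.3e-08). Borealin went the same way, and CDCA8 read 36.2, 39.2 and 38.8 against 72.2, 75.6 and 72.5 (log2 fold change -0.93, SE 0.065, adjusted p = 2.9e-07). None overlapped with WT. With OX, BIRC5 read 28.2, 28.1 and 24.6 (-2.92) and CDCA8 9.48, 8.4 and 10.1 (-2.85) in HCT116. The ratio of AURKB to INCENP within a library, chosen after the values had been seen, was 6.41, 6.51 and 5.66 in HCT116 WT, 2.79, 2.95 and 2.36 with 5-FU and 1.55, 1.6 and 1.68 with OX. The 3 groups did not overlap. Such a ratio does not depend on the scaling of the library, but it can depend on transcript length. The transcripts have 1243 bases for AURKB and 4114 for INCENP, and the ratio was not recomputed with the length trend removed.

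In SW480 the same ratio ran 5.82, 8.91 and 6.72 in WT, 4.51, 4.41 and 4.67 with 5-FU and 3.98, 3.72 and 3.8 with OX, and WT lay above both. INCENP itself read 40.3, 33 and 38.5 in the WT, 38.2, 39.3 and 37.1 in the 5-FU res and 40.4, 42.7 and 40.4 in the OX res libraries of SW480, and neither 0.04 nor 0.14 passed, with a called 0.42 and 0.51 unscaled. The INCENP libraries of WT and 5-FU res overlapped. AURKB was lower with 5-FU on both scales (172, 174 and 173, -0.59, unscaled -0.20). BIRC5 read 143, 171 and 155 in the WT, 150, 146 and 144 in the 5-FU res and 114, 119 and 115 in the OX res libraries, where the scaled -0.084 with 5-FU did not pass and turned to 0.30, and the scaled -0.43 with OX became -0.058 with no call. CDCA8 read 84.4, 81.8 and 84.3 in the WT, 57.9, 61.2 and 59.1 in the 5-FU res and 66.2, 65.8 and 61.5 in the OX res libraries (-0.49 and -0.37, and -0.10 and -0.0021 with no call unscaled). The complex moved together in DLD-1. All 4 were lower with 5-FU and higher with OX. AURKB read 53.1, 52.1 and 56.4 in the 5-FU res libraries (-0.24). INCENP read 28.9, 30.1 and 29.7 in the WT, 24.2, 26.5 and 24.2 in the 5-FU res and 36.7, 43 and 40.6 in the OX res libraries (-0.24 and 0.42). BIRC5 read 105, 105 and 104 in the WT, 66.8, 67.8 and 68.8 in the 5-FU res and 128, 127 and 128 in the OX res libraries (-0.62 and 0.29). Each stood apart from WT in both resistant groups, as did CDCA8 with 63.8, 66.7 and 63.9 in OX res (0.36). BIRC5 lies over an antisense gene, and the strand setting of the authors' counting is not given in the sources used here.

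The 4 spindle checkpoint genes all fell in OX-resistant HCT116, with log2 fold changes of -2.31 for TTK (the kinase MPS1), -2.37 for the kinase BUB1, -2.42 for BUB1B (BUBR1) and -2.77 for MAD2L1, which binds CDC20. With 5-FU, only MAD2L1 (-0.72) and BUB1 (-0.18) passed in HCT116. BUB1B, a part of the complex that holds CDC20 back, read 55, 59.5 and 60.4 in the WT, 56.5, 54 and 60.5 in the 5-FU res and 9.45, 9.98 and 10.8 in the OX res libraries of HCT116. Its 5-FU res libraries overlapped with WT. The ratio of CDC20 to BUB1B, again chosen after viewing the values, was 10.2, 8.88 and 8.74 in WT, 3, 3.13 and 2.75 with 5-FU and 5.27, 4.57 and 4.35 with OX in HCT116. In SW480 it was 6.21, 10 and 7.4 in WT, 2.91, 2.76 and 3.06 with 5-FU and 6.64, 6.68 and 5.59 with OX. In DLD-1 it was 3.59, 3.6 and 3.51 in WT, 4.54, 4.58 and 4.79 with 5-FU and 3.45, 3.67 and 3.2 with OX. The 5-FU res libraries thus had the lowest ratio in HCT116 and SW480 and the highest in DLD-1, without overlap in any of the 3 lines. BUB1B has a longer transcript than CDC20, and the ratio was not recomputed with the length trend removed.

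The NDC80 complex, made of NDC80, NUF2, SPC24 and SPC25, binds microtubules at the outer kinetochore. In HCT116 NDC80 read 46.8, 52.9 and 54 in the WT, 38.3, 42.2 and 39.1 in the 5-FU res and 11.1, 12.6 and 11.7 in the OX res libraries (log2 fold change -0.35, SE 0.07, adjusted p = 0.00085 with 5-FU and log2 fold change -2.03, SE 0.07, adjusted p = 6.6e-10 with OX). NUF2 read 40.8, 42.3 and 47.1 in the WT, 36.2, 39.3 and 38.5 in the 5-FU res and 9.18, 8.51 and 7.95 in the OX res libraries (log2 fold change -0.19, SE 0.07, adjusted p = 0.032 and log2 fold change -2.22, SE 0.07, adjusted p = 3.4e-10). The NUF2 value with 5-FU passed narrowly. It was -0.032 without scaling and no longer passed, and it turned to 0.017 with the length trend removed. Without WT replicate 3 or without 5-FU res replicate 1 or 3 it was -0.13, -0.15 and -0.20, and did not pass either. SPC24 read 32.8, 21.7 and 27 in the WT, 19, 12.4 and 13.7 in the 5-FU res and 2.43, 4.62 and 5.17 in the OX res libraries. SPC25 read 47.9, 56.7 and 58 in the WT, 28.2, 28.9 and 32.8 in the 5-FU res and 9.44, 9.82 and 8.72 in the OX res libraries. Both were lower in both resistant groups of HCT116 (log2 fold changes of -0.82 and -2.50 for SPC24, and of -0.83 and -2.41 for SPC25), and the 3 groups did not overlap. SPC24 was the least reproducible member, with a coefficient of variation of 35.5% in OX res and 20.6% in WT.

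In SW480 the subunits parted, with NUF2 low in 5-FU res alone. NDC80 read 72.1, 69.1 and 65.8 in the WT, 78.4, 86.3 and 78.6 in the 5-FU res and 76.5, 68.7 and 71.2 in the OX res libraries, higher with 5-FU (log2 fold change 0.23, SE 0.061, adjusted p = 0.0065) and not passing with OX (0.062, and a called 0.43 unscaled). NUF2 read 31.5, 31.8 and 35.3 in OX res (0.05, not passed, and a called 0.41 unscaled). The ratio of NUF2 to NDC80 (chosen after viewing the values) was 0.477, 0.441 and 0.46 in WT, 0.203, 0.185 and 0.148 with 5-FU and 0.412, 0.463 and 0.495 with OX. In HCT116 it was 0.872, 0.8 and 0.872 in WT and 0.944, 0.93 and 0.984 with 5-FU. In DLD-1 it was 1.57, 1.51 and 1.47 in WT and 1.88, 1.6 and 1.74 with 5-FU. The low ratio was thus seen in SW480 5-FU res, while in the other lines the 5-FU res libraries lay above WT. SPC24 read 20.5, 17.2 and 17.8 in SW480 5-FU res, which overlapped with WT, and its -0.30 turned to 0.075 without scaling. Without WT replicate 1 it was -0.24, and without 5-FU res replicate 2 or 3 it was -0.25 and -0.27, none of which passed. SPC25 read 63.9, 66.7 and 62.1 there (-0.45 scaled, and -0.061 with no call unscaled).

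In DLD-1 all 4 subunits of the NDC80 complex were lower with 5-FU, and with OX their log2 fold changes were above 0. NDC80 read 31, 30.2 and 32.8 in the WT, 21.2, 23.7 and 18.3 in the 5-FU res and 35.4, 32.7 and 32.9 in the OX res libraries, so that OX res overlapped with WT. NUF2 read 48.6, 45.5 and 48.1 in the WT, 39.9, 37.9 and 31.9 in the 5-FU res and 52.7, 48.8 and 53 in the OX res libraries. SPC24 read 21.8, 19.7 and 20.3 in the WT, 12.3, 13 and 11.6 in the 5-FU res and 28.8, 30.5 and 27.4 in the OX res libraries. SPC25 read 28.3, 27.6 and 30.7 in the WT, 21.7, 18.7 and 19.5 in the 5-FU res and 39.3, 35.9 and 35.2 in the OX res libraries. In every subunit the 5-FU res libraries lay below WT, and NUF2, SPC24 and SPC25 had their OX res libraries above it. The log2 fold changes with 5-FU were -0.56, -0.37, -0.70 and -0.51. With OX SPC24 (0.47) and SPC25 (0.34) were higher, while NDC80 (0.10) and NUF2 (0.12) did not pass and were called higher on unscaled TPM (0.25 and 0.26).

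CENPF and CENPE, long proteins of the outer kinetochore, moved against most other members in 5-FU-resistant HCT116. CENPF read 28.8, 29 and 31 in the WT, 55.4, 48.9 and 53.5 in the 5-FU res and 7.38, 7.61 and 7.96 in the OX res libraries of HCT116 (log2 fold change 0.81, SE 0.061, adjusted p = 5.2e-07 with 5-FU and log2 fold change -1.82, SE 0.061, adjusted p = 5.4e-10 with OX). CENPE read 9.37, 7.84 and 8.84 in 5-FU res (log2 fold change 0.35, SE 0.097, adjusted p = 0.0065). Their transcripts are long (10290 bases for CENPF and 8541 for CENPE), and over all genes the log2 fold change rose with length there (rho 0.44). The median of the 13 longest members went from -0.03 to -0.21 with the length trend removed. The single values of CENPF and CENPE with that trend removed are not given here, and the part of length in them was not tested further. CENPE in SW480 read 9.56, 7.01 and 8.84 in the WT, 8.7, 8.52 and 9.56 in the 5-FU res and 14, 11.6 and 14.4 in the OX res libraries, where 5-FU res overlapped with WT (0.076, not passed) and OX res lay above (log2 fold change 0.60, SE 0.12, adjusted p = 0.0011). CENPA in SW480 read 71.6, 80.5 and 72.5 in the WT, 80.8, 73.5 and 77.3 in the 5-FU res and 52.6, 56.9 and 52.6 in the OX res libraries, lower with OX on the scaled values (-0.46) and -0.10 with no call unscaled. CENPF in DLD-1 read 61.9, 61.8 and 61.6 in the WT, 47, 48.2 and 44 in the 5-FU res and 75, 78.7 and 81.6 in the OX res libraries. CENPE in DLD-1 read 9.89, 9.76 and 10.7 in the WT, 7.07, 8.43 and 7.62 in the 5-FU res and 13.6, 14 and 14.7 in the OX res libraries. There both were lower with 5-FU (-0.41 and -0.35) and higher with OX (0.34 and 0.44).

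Of the 9 motors and spindle proteins, all fell in OX-resistant HCT116, from HMMR (a spindle assembly protein, -2.66) to ASPM (-1.68), with KIF2C, KIF20A, PRC1, DLGAP5, KIF23, NUSAP1 and KIF11 between. In HCT116 5-FU res, ASPM read 17.9, 14.5 and 15.9 (log2 fold change 0.65, SE 0.092, adjusted p = 6.8e-05). NUSAP1 read 146, 142 and 155 (log2 fold change 0.30, SE 0.053, adjusted p = 0.00031). Once a trend of all genes on transcript length was taken out, the value of ASPM turned to -0.0265. The microtubule depolymerase KIF2C (-0.85) and HMMR (-0.77) fell there, while KIF11, the motor that separates spindle poles, did not pass (0.11). In SW480, on the scaled values, 5 of the 9 were higher and 2 lower with 5-FU, and 6 were higher and 0 lower with OX. Of all genes, 40.7% were higher and 30.6% lower with 5-FU, and 36.7% and 31.7% with OX. KIF23, a midzone motor of cytokinesis, read 85.2, 72.6 and 83.5 in SW480 WT and 128, 124 and 122 in OX res (0.63). KIF20A, another midzone motor, had -0.26 with 5-FU and 0.30 with OX in SW480, and the former was 0.12 without a call unscaled. ASPM in SW480 5-FU res read 22, 22.1 and 20.1 (0.47). In DLD-1 all 9 were lower with 5-FU (25.2% of all genes) and all 9 higher with OX (23.3% of all genes).

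APC/C activators and the genes of sister separation followed the set in OX-resistant HCT116, where PTTG1 and UBE2C were the most abundant members. PTTG1 (securin) read 441, 474 and 413 in the WT, 212, 226 and 198 in the 5-FU res and 96.1, 106 and 92.1 in the OX res libraries of HCT116 (log2 fold change -1.06, SE 0.071, adjusted p = 2.1e-07 with 5-FU and log2 fold change -2.16, SE 0.071, adjusted p = 4.3e-10 with OX). ESPL1 (separase), which securin holds inactive, read 26.7, 24 and 27.2 in the WT, 23.4, 22.7 and 22.6 in the 5-FU res and 5.56, 4.78 and 6.4 in the OX res libraries. Its 5-FU res libraries lay just below WT, with -0.18 (adjusted p = 0.09, and a called -0.61 with the length trend removed), and its OX res libraries far below (log2 fold change -2.04, SE 0.088, adjusted p = 3.3e-09). The ratio of PTTG1 to ESPL1, chosen after viewing the values, was 16.5, 19.7 and 15.2 in WT, 9.08, 9.98 and 8.77 with 5-FU and 17.3, 22.2 and 14.4 with OX in HCT116. The 5-FU res libraries lay below the others. PTTG1 has the shortest of the 38 transcripts and ESPL1 a long one, and with the length trend removed their log2 fold changes with 5-FU were closer (-0.78 and -0.61). In SW480 PTTG1 read 595, 714 and 677 in the WT, 440, 446 and 453 in the 5-FU res and 483, 449 and 451 in the OX res libraries, lower on both scales (-0.56 and -0.52, unscaled -0.17 and -0.15). ESPL1 in SW480 read 33.7, 29.3 and 34.7 in the WT, 29.5, 29.2 and 29.9 in the 5-FU res and 27.5, 28.3 and 27.6 in the OX res libraries, and its scaled -0.13 (not passed) and -0.22 turned to 0.24 and 0.14 unscaled. Without WT replicate 2 the former passed (-0.20), and without WT replicate 3 the latter did not (-0.17). PTTG1 in DLD-1 read 205, 191 and 217 in the WT, 159, 146 and 160 in the 5-FU res and 255, 255 and 258 in the OX res libraries. ESPL1 in DLD-1 read 27.4, 27.5 and 24.7 in the WT, 21.9, 21.8 and 22.4 in the 5-FU res and 34.4, 37.1 and 34.5 in the OX res libraries. Both were lower with 5-FU (-0.40 and -0.26) and higher with OX (0.33 and 0.40). PTTG1 has near-identical copies in the genome that may share its reads. Of such copies, PTTG2 read at most 1.23 scaled TPM (HCT116 WT) and PTTG3P was listed at 0 in each group. How reads were assigned among them was not tested.

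CDC20 read 312, 316 and 293 in SW480 OX res, where its scaled -0.30 turned to 0.07 without scaling. It read 225, 244 and 223 in DLD-1 OX res, above WT (log2 fold change 0.25, SE 0.043, adjusted p = 0.00079). Its ratio to MAD2L1, the checkpoint protein that binds it, (chosen after viewing the values) was 3.19, 2.89 and 2.9 in HCT116 WT and 1.52, 1.58 and 1.54 in 5-FU res. The same ratio in DLD-1 was 1.33, 1.53 and 1.31 in WT and 1.97, 2.08 and 2.19 in 5-FU res. In SW480 the ratio was 2.14, 2.93 and 2.48 in WT and 1.36, 1.19 and 1.39 in 5-FU res. The 5-FU res libraries thus lay below WT in HCT116 and SW480 and above WT in DLD-1, without overlap. With OX the ratio was 2.12, 1.54 and 1.96 in HCT116, below WT, and overlapped with WT in SW480 and DLD-1. With the length trend removed, the log2 fold changes with 5-FU were -1.42 for CDC20 and -1.02 for MAD2L1 in HCT116. They were -1.23 and -0.58 in SW480, and 0.052 and -0.53 in DLD-1. UBE2C read 433, 429 and 404 in the WT, 312, 336 and 319 in the 5-FU res and 95.7, 102 and 86.7 in the OX res libraries of HCT116 (-0.39 and -2.15). CDCA5 had log2 fold changes of -0.88 and -2.64 in 5-FU- and OX-resistant HCT116.

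The ratio of CCNB1 to CDK1 set 5-FU-resistant cells apart in each line. It was 2.06, 1.99 and 1.9 in HCT116 WT, 0.777, 0.762 and 0.713 with 5-FU and 1.28, 1.3 and 1.25 with OX. SW480 had 1.76, 1.74 and 1.65 in WT, 1, 1.02 and 1.01 with 5-FU and 1.62, 1.68 and 1.62 with OX. DLD-1 went the other way, with 1.33, 1.27 and 1.32 in WT, 2.02, 1.92 and 1.93 with 5-FU and 1.29, 1.39 and 1.25 with OX. The 5-FU res libraries thus lay below WT in HCT116 and SW480 and above WT in DLD-1, with no overlap, and this ratio too was chosen after the values had been seen.

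TOP2A, which was lower in HCT116 WT than in the other WT lines, read 81.3, 81.8 and 85.2 in HCT116 5-FU res (log2 fold change 0.51, SE 0.064, adjusted p = 2.5e-05) and 14.3, 16.6 and 14.7 in OX res (log2 fold change -1.87, SE 0.064, adjusted p = 5.7e-10). Its 5-FU value was 0.16 and no longer passed with the length trend removed. In SW480 it read 271, 285 and 262 with 5-FU and 322, 294 and 322 with OX (0.36 and 0.56), both above WT. The 5-FU value was 0.15 with no call once the length trend was removed. In DLD-1 it read 260, 269 and 276 with OX (log2 fold change 0.26, SE 0.04, adjusted p = 0.00032).

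Some members shared a direction across lines. In both drugs of HCT116 and SW480, 12 genes were lower on the scaled values (CCNB1, CCNB2, FOXM1, PLK1, AURKA, AURKB, CDCA8, MAD2L1, SPC24, SPC25, CDC20 and PTTG1), of which AURKB and PTTG1 were also lower in both SW480 comparisons without scaling. In 5-FU res cells of all 3 lines, 17 were lower on the scaled values, and of these AURKA, AURKB, HMMR, PLK1 and PTTG1 were also lower in each line without scaling. NUF2 was lower in SW480 and DLD-1 on that scale, but was -0.032 with no call in HCT116. In OX res cells, 35 were lower in HCT116 and higher in DLD-1. Comparisons within a line share their WT libraries. The shares of all genes with the same joint patterns were not counted, so these counts have no background.

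The change of a member moved with the length of its transcript in HCT116 and SW480. Spearman's rho between length and log2 fold change over the 38 members was 0.59 and 0.41 in 5-FU- and OX-resistant HCT116, 0.53 and 0.62 in SW480 and -0.15 and 0.01 in DLD-1. Over all genes with a length it was 0.44, 0.27, 0.22, 0.44, 0.01 and 0.04 in the same order. The 13 shortest members (715 to 2160 bases, with PTTG1, UBE2C, CDC20 and PLK1) had a median of -0.83 in HCT116 5-FU res, the 12 of middle length -0.71, and the 13 longest (3473 to 10863 bases, with ASPM, CENPF and TOP2A) -0.03. In OX-resistant HCT116 the same medians were -2.35, -2.55 and -1.87. Once the trend of all genes on length had been removed from each library, the members' rho was 0.23 and 0.05 in HCT116 and 0.29 and 0.24 in SW480. In OX-resistant HCT116 the medians by length were then -2.21, -2.61 and -2.22. The 6 members that were higher in HCT116 5-FU res include the longest ones. With the length trend removed, ASPM (-0.0265) and TOP2A (0.16) were no longer called there. The values of the others with the trend removed are not given here. In SW480 the WT replicate 2, which had the highest FPKM sum, read lowest of its group in long members such as TOP2A and CENPF.

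**Figure D4:**
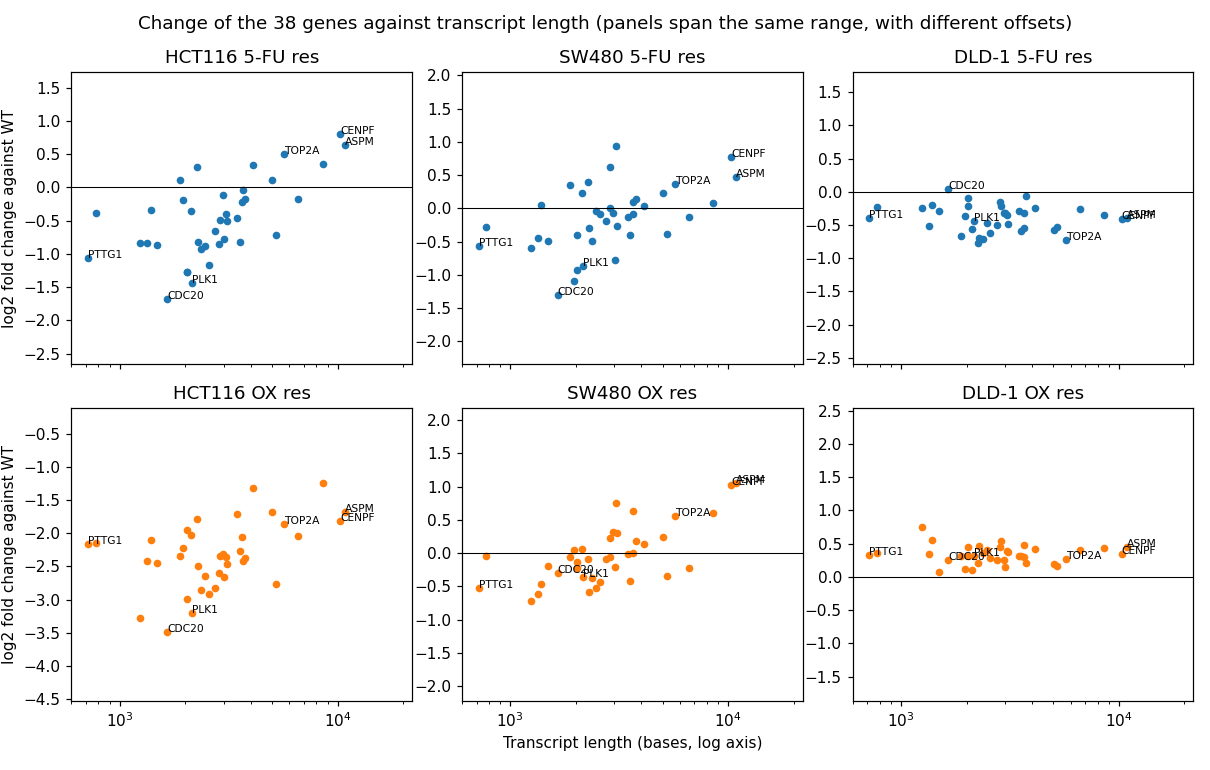
Log2 fold change against WT of the 38 genes (points) against transcript length in bases (log axis), for 5-FU res (top) and OX res (bottom) in the 3 lines. Each panel spans the same range of log2 values at its own offset. Long transcripts such as CENPF and ASPM lie above short ones such as PTTG1 in HCT116 and SW480, and no such slope is seen in DLD-1.

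Other genes of the same processes, taken from lists that share no gene with the 38, were set beside them. Of all genes tested, 32.8% were lower and 47.6% higher in OX-resistant HCT116, 35.2% and 40.7% with 5-FU in HCT116, 30.6% and 40.7% with 5-FU and 31.7% and 36.7% with OX in SW480, 25.2% and 25.4% with 5-FU and 22.8% and 23.3% with OX in DLD-1. DNA replication genes were lower in 38 of 38 in OX-resistant HCT116 (median -1.90), in 35 with 5-FU (-0.73), and in DLD-1 in 36 with 5-FU (-0.45), while 34 were higher with OX in DLD-1 (0.28). TK1, which salvages thymidine, fell deepest in OX-resistant HCT116 (log2 fold change -3.47, SE 0.066, adjusted p = 1.3e-11), and PCNA, the sliding clamp, least (-0.68). With OX in DLD-1 they ran from CDT1 (0.052, not passed) to RFC2 (0.66). In SW480 24 and 28 of 38 replication genes were lower on the scaled values with 5-FU and OX (medians -0.24 and -0.48), where unscaled TPM adds a shift of 0.39 and 0.37.

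A second list of 37 motors, spindle and cytokinesis genes had 34 lower and 1 higher in OX-resistant HCT116 (median -1.47), from TROAP (-2.68), a spindle-associated protein, to NUMA1 (0.40), which anchors microtubules at spindle poles. In OX-resistant DLD-1 31 of the 37 were higher, led by ANLN (0.74), a scaffold of the cytokinetic ring, and KIF22 was last (-0.019, not passed). Among 31 further kinetochore and centromere genes, 25 were lower and 3 higher in OX-resistant HCT116 (median -1.01), from CENPM (-2.70) to CENPC (0.44), an inner kinetochore protein. In DLD-1 OX res 25 of the 31 were higher, from CENPP (-0.28, not passed) to ZWILCH (0.63). In OX-resistant HCT116, of 23 further mitotic kinases, phosphatases and entry regulators, 20 were lower and 3 higher (median -1.84), with MYBL2 lowest (-2.76) and LIN37 highest (0.95), both of which belong to late cell cycle transcription complexes. The same list ran in OX-resistant DLD-1 from LIN37 (-0.076, not passed) to BORA (0.65), an activator of PLK1.

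Genes of the APC/C and its regulators, taken as 1 list, did not share the depth of the fall at the median. Of 23 APC/C genes and regulators, 16 were lower and 2 higher in OX-resistant HCT116 with a median of -0.36, from TRIP13 (-2.35), which disassembles the checkpoint complex, to ANAPC13 (0.32). OX-resistant DLD-1 ran from CDC16 (-0.34) to TRIP13 (0.50). FZR1, the APC/C activator that follows CDC20, had 0.018 in OX-resistant HCT116 (adjusted p = 0.77), where it read 37.1, 34.9 and 37.9 against 35.9, 35.3 and 37.1 in WT. UBE2S, which extends ubiquitin chains on APC/C targets, read 829, 781 and 706 in HCT116 WT, 315, 305 and 288 with 5-FU and 194, 189 and 175 with OX (log2 fold change -2.05, SE 0.066, adjusted p = 3.9e-10 for the latter). Of 18 cohesin and condensin genes, 10 were lower and 6 higher in OX-resistant HCT116 (median -0.69, where 32.8% of all genes were lower and 47.6% higher), from the condensin subunit NCAPH (-2.64) to the cohesin loader NIPBL (0.80). In HCT116 5-FU res 11 of these 18 were higher and 5 lower (median 0.49, where 40.7% of all genes were higher and 35.2% lower). With OX in DLD-1 the values ran from STAG2 (-0.18) to NCAPG2 (0.82).

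**Figure D5:**
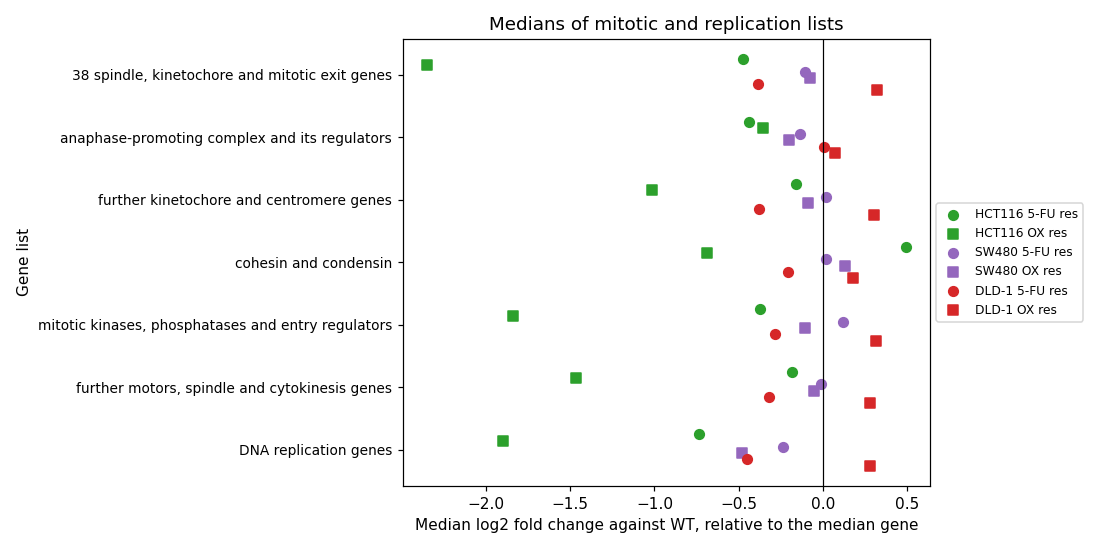
Median log2 fold change against WT, relative to the median gene, of the 38 genes and of 6 further lists (rows) in the 6 resistant groups (colour for the line, circles for 5-FU res and squares for OX res). The OX res medians of HCT116 are the lowest of the row for every list but the APC/C list, and those of DLD-1 OX res are above 0 in every row.

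MKI67, the proliferation marker Ki-67, read 71, 71.4 and 74.4 in HCT116 WT, 105, 84.8 and 96.5 with 5-FU and 14.9, 13.9 and 17.4 with OX. Its log2 fold changes were 0.39 and -2.17 there, and -0.74 and 0.44 in DLD-1. MYBL2, which works with FOXM1, read 121, 112 and 113 in HCT116 WT, 37, 40.2 and 40.2 with 5-FU and 16.5, 16.6 and 15.2 with OX (log2 fold change -1.53, SE 0.056, adjusted p = 3.1e-09 and log2 fold change -2.76, SE 0.056, adjusted p = 1.9e-11). CKS2, a subunit of cyclin B kinase, had -0.93 and -2.02 in HCT116 and -0.28 and 0.40 in DLD-1. CDKN1A (p21), an inhibitor of cyclin-dependent kinases, rose in all 6 resistant groups. It read 515, 486 and 492 in HCT116 WT, 836, 852 and 823 with 5-FU and 1430, 1360 and 1350 with OX (log2 fold change 1.47, SE 0.048, adjusted p = 4.3e-10 for the latter). In DLD-1 it rose about as much with OX (1.45), from 23.4, 24.5 and 24.9 to 67.6, 69.4 and 66.6, beside the small rise of the mitotic genes. Its share in the levels of the mitotic genes was not tested.

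Of the 10 epithelial markers, KRT8 was at 2740 to 10100 TPM and KRT18 at 1590 to 7330 TPM in the group means, whereas others were low or absent. KRT20 was at most 0.18 TPM in SW480 and went from 3.22 in WT to 0.029 in OX res of HCT116, CDH17 was at most 0.091 in HCT116 and SW480, and CDX1 at most 0.45 in any group. In OX-resistant HCT116, where the mitotic genes fell most, 6 of the 7 epithelial markers tested were lower, from CDH1, the adhesion protein E-cadherin (-3.13), to KRT19 (-0.14, not passed), and EPCAM, an epithelial adhesion molecule, was 68.2 TPM against 392 in WT. The summed leukocyte markers were 58.2 to 71.1 TPM in its 3 libraries against 18.1 to 19.2 in WT, nearly all from CD68 (61.5 TPM), a lysosomal protein, while PTPRC was 0.022 TPM and CD3D was listed at 0. Of 7 fibroblast markers 1, COL1A1, was above 1 TPM (16.2 against 6.58 in WT) and DCN was listed at 0, and the 6 endothelial markers summed to 0.584 to 1.0 TPM. The same 6 in DLD-1 OX res summed to 3.38 to 5.3 TPM, against 1.68 to 2.23 in WT. The part of these markers in the mitotic genes' values was not tested.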

How the data were processed

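RNA from 27 libraries of HCT116, SW480 and DLD-1 cells (WT, 5-FU res and OX res, 3 a group) was prepared with a stranded mRNA kit and sequenced on a DNBSEQ platform. The deposited values are FPKM per gene symbol, which the authors made from reads aligned to hg19, with TopHat2 2.1.1, Bowtie2 2.2.8, SAMtools 0.1.18 and Cuffdiff 2.2.1 named in the submitters' processing notes and Cufflinks in the study's methods. Here FPKM was converted to TPM, divided by a median-of-ratios factor from the 10471 genes with a TPM of at least 1 in all 27 libraries, and taken as log2(value + 1). Genes with a TPM of at least 1 in 3 or more libraries of a fit were tested with limma 3.58.1 (R 4.3.3, trend on mean level) within each line over 9 libraries (14010, 14039 and 13467 genes), and over 27 libraries (15801 genes) for WT lines and for interactions. A call is a Benjamini-Hochberg adjusted p under 0.05. The study's rank test cannot pass that threshold with 3 libraries against 3, so limma stood in for it.

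The files hold no counts, so depth is unknown and no counting interval is given. FPKM sums ran from 451767 to 804635. Groups were taken from the sample labels. Same-numbered libraries met a criterion for pairing where the deviations from the group means (over 10471 genes) correlated above 0.1 in all 3 pairs. That held for HCT116 WT with 5-FU res (0.129 to 0.23), HCT116 WT with OX res (0.15 to 0.243) and SW480 WT with OX res (0.146 to 0.364), and not for the other 6 comparisons within a line (-0.329 to 0.291). No label ties the numbers to a shared culture or day. All main fits were unpaired, and the replicate number entered only as a block among the alternatives. Members were all named by role, and in full where they were the 3 lowest or 3 highest of a comparison with WT or belonged to a short list of key regulators. For 6 further lists the lowest and highest genes in OX-resistant HCT116 and DLD-1 were named. Members, lists and tests were chosen with earlier results of these data known. Transcript lengths came from GENCODE on GRCh37 (22422 symbols matched directly and 1358 by synonym, 2475 without a length), and promoters from RefSeq on GRCh38.p14. The scripts were checked on simulated data. Alternatives were TPM with no further scaling, a pseudocount of 0.1, no filter, a mean TPM of at least 5, the replicate number as a block, removal of the length trend, and leaving out each library. Tables and figures were made with Python 3.11.15, numpy 2.4.6, pandas 2.3.3, scipy 1.17.1 and matplotlib 3.10.9.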

Additional observations from a re-analysis of the deposited data

Results flagged for a closer look

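The effect of resistance differed between lines, by the interaction term in limma over 27 libraries. For OX resistance, all 38 genes differed between HCT116 and SW480, all 38 between HCT116 and DLD-1, and 30 between SW480 and DLD-1. The shares of all genes higher and lower were 33.5% and 29.9%, 39.9% and 29.0%, and 33.3% and 28.2% in that order. For 5-FU resistance, 24 differed between HCT116 and SW480, 27 between HCT116 and DLD-1, and 28 between SW480 and DLD-1. There the shares of all genes were 31.1% higher and 33.4% lower, 34.7% and 30.5%, and 36.6% and 27.5%. Most genes differed as well, so the 5-FU counts alone show no difference particular to the set. Whether the members differed more often than other genes was not tested. Groups held 3 libraries each, and no library was tested as an outlier at that size.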

How the results depend on the processing

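The count of members called lower in OX-resistant HCT116 stayed at 38 under each alternative tried. With unscaled TPM the members' median log2 fold change was -0.32 and -1.87 in 5-FU- and OX-resistant HCT116, 0.28 and 0.29 in SW480 (reversed) and -0.42 and 0.47 in DLD-1, since that scale adds a constant per comparison. Counts became 21 higher and 7 lower in SW480 cells with 5-FU, 23 and 4 with OX, 12 and 18 for HCT116 WT against DLD-1 WT, and 14 and 13 for SW480 WT against DLD-1 WT. The shares of all genes on that scale were not counted. Of the differences between lines, the lower counts went from 17 to 10 (5-FU, HCT116 against DLD-1), from 7 to 2 (5-FU, SW480 against DLD-1), from 22 to 29 (5-FU, HCT116 against SW480) and from 26 to 17 (OX, SW480 against DLD-1). A pseudocount of 0.1 gave a median of -2.42 in OX-resistant HCT116. With the length trend removed the medians were -0.51 and -2.39 in HCT116 and -0.21 and -0.022 in SW480, and the cause was not tested.

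Leaving out 1 library at a time gave medians of -0.50 to -0.44 and -2.37 to -2.31 in 5-FU- and OX-resistant HCT116, -0.18 to -0.088 in SW480 5-FU res and -0.41 to -0.36 in DLD-1 5-FU res, and 7 to 12 members higher in SW480 OX res. With the number as a replicate block, no member changed its call in the 3 comparisons that met the criterion for pairing. In the other 6 within-line comparisons 4 calls changed (TPX2 in SW480 5-FU res against WT, which left 17 lower, and against OX res, and CENPA and CCNB1 in DLD-1 5-FU res), and no count of members moved by over 1.5 times.

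Some genes turned direction. Without scaling, 11 of the 38 did so in SW480 with 5-FU, 6 of them called higher, 15 with OX, 9 of them called higher, and 2 in HCT116 5-FU res (BUB1B and TTK, neither called). Among them were BIRC5 (0.30), ESPL1 (0.24) and SPC24 (0.075) in SW480 with 5-FU, and AURKA (0.15), CCNB1 (0.24), CDC20 (0.07), CDK1 (0.31), ESPL1 (0.14) and PLK1 (0.0064) with OX. With the length trend removed, ASPM (-0.0265) and NUF2 (0.017) did so in HCT116 5-FU res, INCENP (-0.11) in SW480 5-FU res, and CCNB1 (0.016) and CDK1 (0.105) in SW480 OX res. Leaving out 1 library moved INCENP in SW480 5-FU res between -0.0433 (without WT replicate 2) and 0.0972, and NUF2 in SW480 OX res between -0.0001 (without OX res replicate 3) and 0.1083, neither of which passed the test. Of the other values for single named genes, 660 kept direction and call, 12 gained and 16 lost a call under the alternatives, and 681 kept, 5 gained and 14 lost it when a library was left out. Precision is set by 3 libraries a group, and read depth is unknown.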
